A study of Homo sapiens with 8 samples.

Results

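CDK4 and 8 genes beside it on chromosome 12q14 were followed in 2 human neuroblastoma cell lines, NGP and CHLA-20. The 9 genes, of 58721 gene identifiers counted, were picked as neighbours of CDK4 with the difference between the lines already known. They are AGAP2, TSPAN31, CDK4, CYP27B1, METTL1, EEF1AKMT3, TSFM, AVIL and CTDSP2, in the order of their positions. That difference is therefore described without a test, while the response to the inhibitor was tested across all genes. All 9 had enough counts to enter the tests.

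The 8 libraries form 4 groups of 2, namely NGP with JSK591, NGP with DMSO, CHLA-20 with JSK591 and CHLA-20 with DMSO. JSK591 is the name the samples give to an inhibitor of PRMT5, the enzyme that places symmetric dimethyl marks on arginines. The treatment description names the compound GSK591 and gives its dose as the IC50, with no concentration. Treatment lasted 6 days, and DMSO was the vehicle. NGP grew in RPMI and CHLA-20 in IMEM with insulin, transferrin and selenium, so line and medium cannot be told apart. No allele, transgene or further treatment is labelled in either line. Whether the 2 libraries of a group came from separate cultures is not stated, and p-values measure only the spread between these libraries, which may be technical. Each library held between 33188542 and 34914902 counts in genes. Of 9 neuroblastoma markers, 6 reached 1 CPM, the count scaled to the size of the library, in the NGP groups and 8 in the CHLA-20 groups. TH and DBH, enzymes of catecholamine synthesis, stayed under 1 CPM in NGP, and CHGA, a granule protein, did not exceed 0.0294 CPM in any library. Blood markers summed to at most 0.404 CPM.

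CDK4 is the kinase that binds D-type cyclins and phosphorylates the retinoblastoma protein RB, which then releases E2F factors and lets cells enter S phase. INK4 proteins, such as the product of CDKN2A, block it. The 12q13 to 12q14 region is a known site of gene amplification in sarcomas, gliomas and some neuroblastomas, at times together with MDM2 further along the arm, and CDK4 is held to be the main target there. Its neighbours have unrelated functions and lie within the same stretch of DNA. Copy number was not measured here, so gene copies and RNA per copy cannot be told apart. In bulk libraries such as these, fewer cells of a kind and less RNA per cell cannot be told apart either.

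The members occupy 123.0 kb of GRCh38, from 57723761 to 57846739 on chromosome 12, and several share exonic bases. CDK4 (minus strand, 57747727 to 57756013) and TSPAN31 (plus strand, 57738013 to 57750211) run towards each other and share 1078 exonic bases, 51.9% of those of CDK4 and 28.2% of those of TSPAN31. METTL1 (minus strand) and EEF1AKMT3 (plus strand) begin head to head and share 392 bases, 19.0% of those of METTL1. AGAP2 shares 13.1% with its antisense gene AGAP2-AS1, TSFM 11.2% with AC025165.3 and AVIL 3.1% with TSFM. CYP27B1 and CTDSP2 share none. Whether counting used strand is unknown, so reads in the shared bases may have been left out or given to the partner, and counts of the overlapping members are less certain.

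RefSeq (GRCh38.p14) lists promoter windows, from 250 bases before to 50 after the start, for 6 of the 9 genes. METTL1, EEF1AKMT3 and CYP27B1 are named only. Those of CDK4 (chr12:57752261-57752560, minus strand), TSPAN31 (chr12:57744789-57745088, plus strand) and CTDSP2 (chr12:57846680-57846979, minus strand) are shown, since CDK4 names the block, TSPAN31 is the gene that shares most bases with it, and CTDSP2 had the largest counts. Capitals mark CACGTG, the E-box, a motif that MYC family proteins are known to bind. The RefSeq start of CDK4 lies inside the longer gene drawn by GENCODE, whose outermost start is 57756013.
CDK4: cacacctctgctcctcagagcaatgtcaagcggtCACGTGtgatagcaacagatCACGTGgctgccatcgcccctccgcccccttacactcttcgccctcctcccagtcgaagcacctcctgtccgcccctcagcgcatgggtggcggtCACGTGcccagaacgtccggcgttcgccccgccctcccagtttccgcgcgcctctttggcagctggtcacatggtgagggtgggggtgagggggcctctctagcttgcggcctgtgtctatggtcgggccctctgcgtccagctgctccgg
TSPAN31: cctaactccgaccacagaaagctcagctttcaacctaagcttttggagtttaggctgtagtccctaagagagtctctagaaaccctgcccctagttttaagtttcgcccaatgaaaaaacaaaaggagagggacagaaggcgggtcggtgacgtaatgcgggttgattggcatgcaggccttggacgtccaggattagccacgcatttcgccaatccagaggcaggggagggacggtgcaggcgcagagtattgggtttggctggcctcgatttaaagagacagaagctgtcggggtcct
CTDSP2: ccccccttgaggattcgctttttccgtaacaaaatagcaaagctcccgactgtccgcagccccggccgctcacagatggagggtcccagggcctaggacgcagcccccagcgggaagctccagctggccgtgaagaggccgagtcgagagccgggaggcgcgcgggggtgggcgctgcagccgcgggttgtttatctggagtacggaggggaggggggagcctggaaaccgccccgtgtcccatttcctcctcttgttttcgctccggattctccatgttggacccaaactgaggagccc

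The CDK4 window holds 3 E-boxes, which begin 216, 196 and 101 bases before the start. Of 35116 promoter windows of the same length, 7.26% hold at least 1 CACGTG and 33, or 0.094%, hold 3 or more. Among the 6 member genes listed, only CDK4 has the motif. GGGCGG, the GC box, is in the windows of 3 of the 6 genes (CDK4, AGAP2 and CTDSP2) and in 45.0% of all windows. CCAAT is in those of TSPAN31, with 4 matches, and AVIL, against 34.6% of all windows. TGACGT was matched in TSPAN31 alone (7.98% of all windows), and CCGGAAG in none of the 6 (10.3%). Both strands were searched, and none of the E-boxes overlapped another motif. A match is a description of these letters, not evidence that a factor binds.

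In the untreated lines, 8 of the 9 genes had at least 2-fold more RNA in NGP DMSO than in CHLA-20 DMSO, and AGAP2, at the edge of the block, did not. Their median log2 difference was 2.89, against a median of -0.02 over all 19395 genes tested. Of all genes, 16.3% were at least 2-fold higher in NGP DMSO; because the members were chosen on this contrast, nothing is read from their count. With JSK591 the median was again 2.89, 8 of 9 were at least 2-fold higher, and the background was 17.8%. The 9 genes took 0.353 ± 0.0040% of all gene counts in NGP JSK591 and 0.362 ± 0.00038% in NGP DMSO, against 0.0359 ± 0.0010% in CHLA-20 JSK591 and 0.0387 ± 5.8e-05% in CHLA-20 DMSO (SD, n = 2 each). CDK4 and CTDSP2 together made up 80.3% to 82.5% of these counts in NGP libraries and 70.9% to 74.4% in CHLA-20 libraries. Fibroblast and Schwann markers also differed between the lines: the 8 genes summed to 578 to 692 CPM over the NGP libraries and 416 to 487 CPM over those of CHLA-20. COL1A1, a collagen, made up most of the NGP sums, at 637 ± 27 CPM in NGP JSK591 and 547 ± 12 CPM in NGP DMSO against 47.7 ± 2.1 CPM in CHLA-20 JSK591 and 71.0 ± 1.6 CPM in CHLA-20 DMSO. DCN, LUM, COL1A2 and PDGFRB went the other way. DCN had 0.120 ± 0.043 CPM in NGP DMSO and 134 ± 1.0 CPM in CHLA-20 DMSO, and LUM 3.78 ± 0.80 CPM in NGP DMSO and 158 ± 3.8 CPM in CHLA-20 DMSO. COL1A2 had 0.164 ± 0.063 CPM in NGP DMSO and 7.56 ± 1.6 CPM in CHLA-20 DMSO, and PDGFRB 35.2 ± 1.1 CPM in NGP DMSO and 115 ± 2.4 CPM in CHLA-20 DMSO. SOX10 had no more than 0.178 CPM in any library. The part of these genes in the result was not tested.

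**Figure D1:**
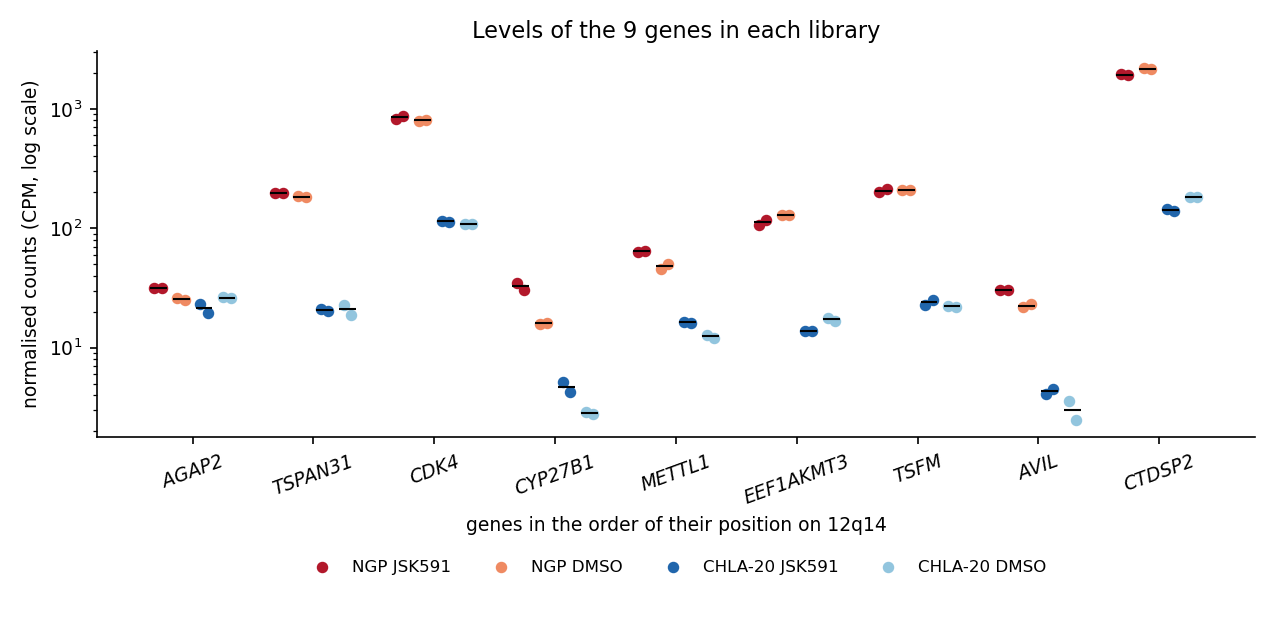
Normalised counts (CPM, log scale) of the 9 genes in each of the 8 libraries, in the order of position on 12q14, with points for libraries and bars for the mean of 2. For 8 genes all NGP points lie above all CHLA-20 points, with CDK4 between 789 and 870.5 CPM in NGP and between 108 and 116 CPM in CHLA-20, whereas AGAP2 stays between 19.5 and 31.7 CPM in all libraries.

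CDK4 gave 829 and 870.5 CPM in NGP JSK591, 789 and 811 CPM in NGP DMSO, 116 and 113 CPM in CHLA-20 JSK591 and 108 and 108 CPM in CHLA-20 DMSO. All 4 NGP libraries were above all 4 CHLA-20 libraries, and the log2 difference between lines was 2.89 with either treatment, a 7.43-fold higher level with DMSO.

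TSPAN31, a tetraspanin of cell membranes first found as a gene amplified in sarcoma, had 199 and 196 CPM in NGP JSK591, 186 and 183 CPM in NGP DMSO, 21.0 and 20.4 CPM in CHLA-20 JSK591 and 22.8 and 18.9 CPM in CHLA-20 DMSO. The lines did not overlap, and the log2 difference was 3.26 with JSK591 and 3.14 with DMSO.

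CTDSP2, a phosphatase of the C-terminal domain of RNA polymerase II, was the member with the most counts and the largest difference between lines. It reached 1955 and 1911 CPM in NGP JSK591, 2184 and 2158 CPM in NGP DMSO, 146 and 139.8 CPM in CHLA-20 JSK591 and 181 and 184 CPM in CHLA-20 DMSO. The NGP level was 13.5-fold that of CHLA-20 with JSK591 and 11.9-fold with DMSO, log2 differences of 3.76 and 3.57.

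Among the genes of translation and RNA modification, TSFM, the mitochondrial elongation factor that recycles the factor TUFM, had 200 and 211 CPM in NGP JSK591, 207 and 209 CPM in NGP DMSO, 22.8 and 25.1 CPM in CHLA-20 JSK591 and 22.5 and 21.7 CPM in CHLA-20 DMSO. Its log2 difference between lines was 3.10 with JSK591 and 3.23 with DMSO. EEF1AKMT3, a methyltransferase that modifies a lysine of elongation factor eEF1A, gave 107 and 117 CPM in NGP JSK591, 128 and 129.9 CPM in NGP DMSO, and 13.9 CPM in both CHLA-20 JSK591 libraries, against 17.8 and 16.7 CPM in CHLA-20 DMSO. The difference was 3.01 with JSK591 and 2.90 with DMSO. METTL1, the catalytic subunit of the enzyme that methylates guanosine in transfer RNAs, had 63.4 and 64.4 CPM in NGP JSK591, 45.3 and 50.4 CPM in NGP DMSO, 16.4 and 16.1 CPM in CHLA-20 JSK591 and 12.7 and 12.1 CPM in CHLA-20 DMSO. It differed least of the 8 genes, by 1.97 with JSK591 and 1.95 with DMSO, a 3.87-fold higher level in NGP DMSO.

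The low members were CYP27B1, AVIL and AGAP2. CYP27B1, the hydroxylase that makes the active form of vitamin D, gave 34.6 and 30.5 CPM in NGP JSK591, 15.9 and 16.2 CPM in NGP DMSO, 5.11 and 4.22 CPM in CHLA-20 JSK591 and 2.90 and 2.76 CPM in CHLA-20 DMSO. AVIL, advillin, an actin-binding protein of the gelsolin family, gave 30.5 and 30.1 CPM in NGP JSK591, 21.9 and 23.0 CPM in NGP DMSO, 4.07 and 4.52 CPM in CHLA-20 JSK591 and 3.58 and 2.49 CPM in CHLA-20 DMSO. The lines did not overlap in either gene, and the log2 difference was 2.80 with JSK591 and 2.50 with DMSO for CYP27B1, and 2.82 and 2.88 for AVIL. AGAP2, an Arf GTPase-activating protein that enhances PI3 kinase and AKT signalling, gave 31.7 and 31.7 CPM in NGP JSK591, 26.1 and 25.0 CPM in NGP DMSO, 23.0 and 19.5 CPM in CHLA-20 JSK591 and 26.6 and 25.8 CPM in CHLA-20 DMSO. The DMSO libraries of the lines overlapped, with a log2 difference of -0.04 ± 0.07 (SE), which was 0.27 once the trend with GC content was removed. With JSK591 the lines did not overlap, and AGAP2 was 0.58 higher in NGP.

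Per length of exon, in RPKM, the CPM divided by kilobases of exon, the order of the members differed between the lines. In NGP DMSO it ran CTDSP2 (444 ± 3.8), CDK4 (385 ± 7.5), TSFM (74.8 ± 0.51), TSPAN31 (48.2 ± 0.70), EEF1AKMT3 (40.6 ± 0.49), METTL1 (23.2 ± 1.8), AVIL (7.76 ± 0.27), CYP27B1 (6.31 ± 0.066) and AGAP2 (3.86 ± 0.11 RPKM; SD, n = 2), and each neighbour in this order was apart by more than the sum of the SDs. With JSK591 in NGP, CDK4 (409 ± 14) and CTDSP2 (395 ± 6.4) came within their spread, and CYP27B1 (12.8 ± 1.2) stood above AVIL (10.5 ± 0.080). The others kept their places there, with TSFM at 74.0 ± 2.7, TSPAN31 at 51.6 ± 0.53, EEF1AKMT3 at 35.3 ± 2.4, METTL1 at 30.9 ± 0.36 and AGAP2 at 4.79 ± 0.0041 RPKM. In CHLA-20 JSK591, CDK4 led at 55.1 ± 1.3 RPKM, followed by CTDSP2 at 29.2 ± 0.89 TSFM at 8.63 ± 0.58, METTL1 at 7.88 ± 0.094, TSPAN31 at 5.40 ± 0.11, EEF1AKMT3 at 4.38 ± 0.0054 and AGAP2 at 3.21 ± 0.37. CYP27B1 (1.84 ± 0.25) and AVIL (1.49 ± 0.11) came last, within their spread. In CHLA-20 DMSO, CDK4 led again at 51.9 ± 0.0089, before CTDSP2 at 37.3 ± 0.50 and TSFM at 7.96 ± 0.20. TSPAN31 (5.45 ± 0.72) did not differ beyond the spread from METTL1 (5.99 ± 0.22) before it or EEF1AKMT3 (5.43 ± 0.25) after it, nor did CYP27B1 (1.11 ± 0.040) from AVIL (1.05 ± 0.27). AGAP2, last in NGP DMSO, came before both at 3.96 ± 0.085 RPKM. RPKM of the members with shared bases would be too low if reads there were left out. The share was 51.9% for CDK4, 29.9% for TSPAN31, 19.0% for METTL1, 15.5% for EEF1AKMT3, 14.4% for TSFM, 13.1% for AGAP2 and 3.1% for AVIL. CYP27B1 and CTDSP2 share none, so the order of the members is less certain.

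Inside the stretch from AGAP2 to CTDSP2, 18 genes are annotated, 11 of them protein-coding, and 10 coding genes were tested. The coding gene that is no member is MARCH9, a membrane-bound ubiquitin ligase, whose start lies 0.9 kb from that of CDK4. It had 109 and 106 CPM in NGP JSK591, 72.1 and 70.7 CPM in NGP DMSO, 32.8 and 30.7 CPM in CHLA-20 JSK591 and 30.4 and 31.1 CPM in CHLA-20 DMSO. Its difference between lines, 1.76 with JSK591 and 1.21 with DMSO, lay in the same direction as that of the members and below those of the 8 high ones. AC025165.3 had no count in any library. AGAP2-AS1 lay between 1.10 and 1.68 CPM in all libraries, with a difference of 0.29 ± 0.25 with DMSO.

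Just beyond AGAP2, the nearest tested coding genes did not share the difference, though some genes further out on that side were higher in NGP DMSO, as given below. The nearest were OS9, a lectin of protein quality control, with a log2 difference of 0.28 with DMSO, B4GALNT1, a ganglioside synthase, at -0.81, and SLC26A10 at -0.48. OS9, which starts 62.1 kb from CDK4, had 94.9 ± 1.4 CPM in NGP DMSO and 78.0 ± 2.3 CPM in CHLA-20 DMSO. On the CTDSP2 side, ATP23 follows at 150 kb with 21 counts over all libraries and was not tested, and it is named after its counts were seen. The next tested coding genes were LRIG3 at 1164.5 kb, SLC16A7, a monocarboxylate transporter, at 1840.1 kb and FAM19A2 at 4523.1 kb. All 3 were higher in NGP DMSO, by 1.86, 3.72 and 2.47. None of these 3 therefore marks where the difference ends on that side. Coding genes beyond FAM19A2 were not followed here, apart from the window around MDM2 given below. In between, the long intergenic RNA AC084033.3, at 180.2 kb and chosen after its values were seen, gave 16.4 and 19.2 CPM in NGP JSK591, 20.2 and 22.5 CPM in NGP DMSO, 2.28 and 2.56 CPM in CHLA-20 JSK591 and 3.61 and 2.79 CPM in CHLA-20 DMSO. Its log2 difference was 2.88 with JSK591 and 2.74 with DMSO, close to that of CDK4. Because of how AC084033.3 was chosen, nothing is read from this closeness.

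Over the 38 tested coding genes that start within 1000 kb of CDK4, the 10 inside the stretch had a median log2 difference of 2.89, with 9 at least 2-fold higher in NGP DMSO. All of these but MARCH9 are members chosen on this contrast, so nothing is read from their median or count. Over all genes tested, 16.3% were at least 2-fold higher. The 28 outside had a median of 0.37, 10 of them at least 2-fold higher, and ranged from -1.47 to 4.28. That outer median moved with the choice of genes: it was 0.20 within a distance of 2 Mb, 0.94 over all gene types and 0.57 between the JSK591 libraries. The highest outside were INHBE, an inhibin subunit, at 4.28 and 303.7 kb away, and TAC3, a tachykinin, at 4.0 and 727.1 kb away, both chosen after their values were seen. With JSK591 INHBE fell in both lines, by 0.54 ± 0.07 in NGP and by 2.17 ± 0.27 in CHLA-20 (edgeR adjusted p = 2.56e-09 in NGP and 1.4e-09 in CHLA-20). The tested coding genes between INHBE and AGAP2 lay between -0.81 (B4GALNT1) and 1.11. Windows of the same size around MDM2 and MYCN, which were higher in NGP DMSO by 3.53 and 9.95, held fewer tested coding genes. Around MDM2 10 of 12 were at least 2-fold higher (median 3.02), and around MYCN 3 of 4 (median 4.67), where 16.3% of all genes were. Each count and median includes the centre gene itself, and the windows were chosen with earlier results known, so nothing is read from them. MDM2, the ubiquitin ligase that degrades p53, had 584 ± 7.8 CPM in NGP JSK591 and 468 ± 20 CPM in NGP DMSO, against 65.0 ± 0.027 CPM in CHLA-20 JSK591 and 40.6 ± 0.12 CPM in CHLA-20 DMSO. MYCN had 2011 ± 15 CPM in NGP JSK591 and 2323 ± 94 CPM in NGP DMSO, against 2.81 ± 1.1 CPM in CHLA-20 JSK591 and 2.34 ± 0.33 CPM in CHLA-20 DMSO.

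**Figure D2:**
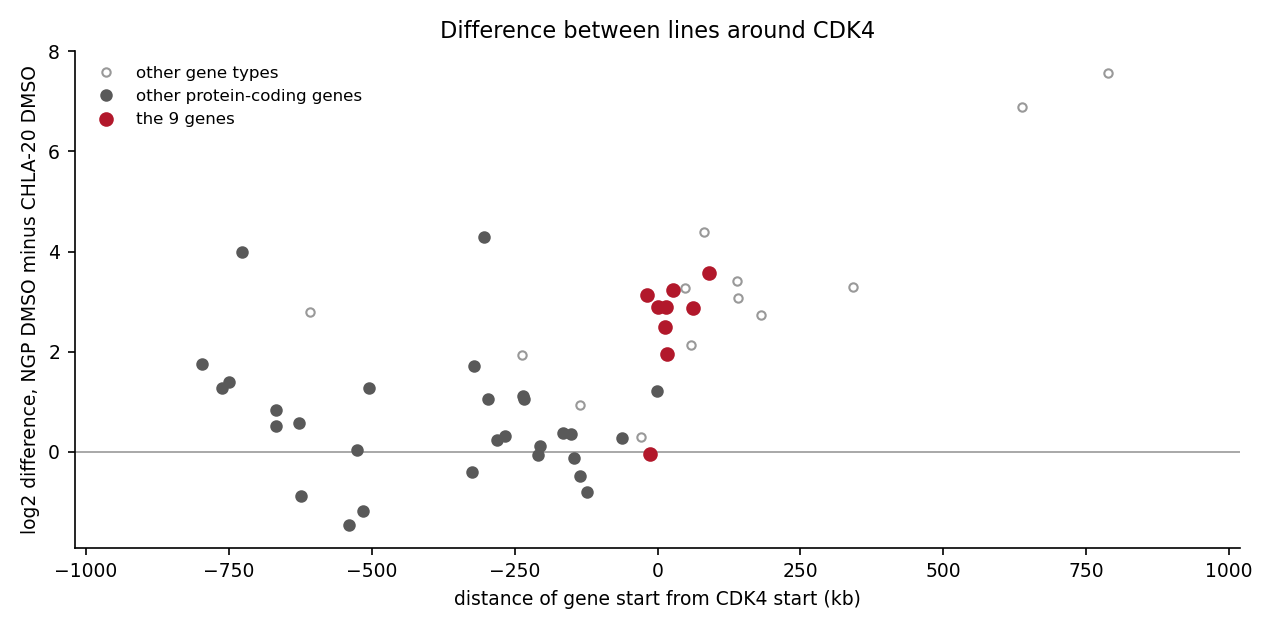
Log2 difference between NGP DMSO and CHLA-20 DMSO (y axis) of each tested gene against the distance of its start from that of CDK4 in kb (x axis). The members other than AGAP2 lie between 1.95 and 3.57. The coding genes to the left of the members scatter around a lower level, with a median of 0.37 for all 28 outside. No tested coding gene lies to the right of CTDSP2 within the window.

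The genes whose pattern over the 8 libraries was most like that of CDK4, by Euclidean distance of centred log2 CPM among 14472 genes of at least 1 CPM on average, were PI4KAP2 (distance 0.196), CLCN2 (0.208), FRAS1 (0.243), VPS37B (0.250) and TMEM178B (0.252). PI4KAP2 is a pseudogene near-identical to PI4KA, so its counts are uncertain. CLCN2 is a chloride channel on chromosome 3, FRAS1 an extracellular matrix protein gene on chromosome 4, VPS37B a gene of endosomal sorting on the far part of chromosome 12, and TMEM178B a membrane protein gene on chromosome 7. The members came later in this order: TSFM ranked 24, TSPAN31 43, EEF1AKMT3 45, AVIL 97, CYP27B1 294, CTDSP2 299, METTL1 396 and AGAP2 4781. With 2 lines and 2 treatments, the distance rests mostly on the size of the line difference.

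With JSK591, the members did not move as a block. In NGP, CYP27B1, AVIL, METTL1, AGAP2 and CDK4 rose and EEF1AKMT3 and CTDSP2 fell, 7 of 9 by edgeR's quasi-likelihood test, where 36.2% of all genes tested passed, 16.8% higher and 19.4% lower. In CHLA-20, CYP27B1, AVIL and METTL1 rose and CTDSP2, EEF1AKMT3 and AGAP2 fell, 6 of 9, where 39.4% of all genes passed, 16.9% higher and 22.4% lower. Median changes were 0.10 in NGP and 0.09 in CHLA-20, against 0.00 and -0.02 over all genes. The JSK591 libraries detected fewer genes than their DMSO libraries in both lines, 27448 and 28474 against 29398 and 30376 in NGP, and 29121 and 29412 against 29889 and 30303 in CHLA-20, and the part of this in the results was not tested.

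**Figure D3:**
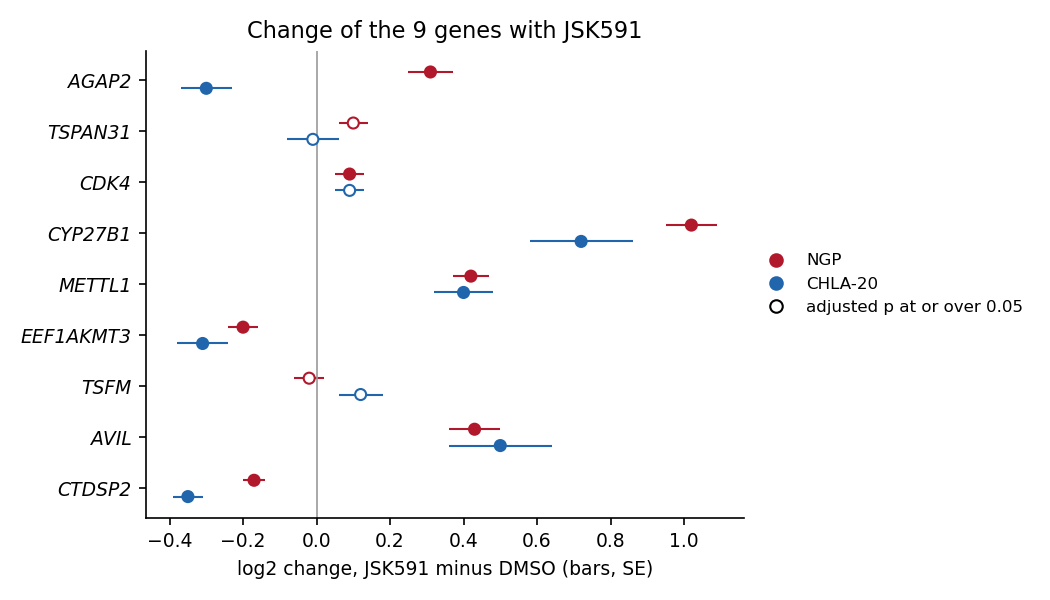
Log2 change of the 9 genes between JSK591 and DMSO (x axis, bars are SE of the fitted change) in NGP and CHLA-20, with open symbols where the adjusted p is at or over 0.05. CYP27B1 lies furthest right in both lines, at 1.02 and 0.72, and AGAP2 has opposite signs, 0.31 in NGP and -0.30 in CHLA-20.

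CYP27B1 rose most of the members in both lines, and its JSK591 libraries lay above its DMSO libraries. The log2 change was 1.02 ± 0.07 in NGP (edgeR adjusted p = 1.14e-17), a 2.03-fold level, and 0.72 ± 0.14 in CHLA-20 (edgeR adjusted p = 2.69e-05), a 1.65-fold level on 142 and 177 counts with JSK591 and 93 and 98 with DMSO. Of the other vitamin D genes on the list of partners, CYP24A1, which degrades the hormone, had 4 counts in all libraries together and the receptor gene VDR had 70, both named after their values were seen. CYP2R1 and RXRA from that list are also named after their values were seen. CYP2R1 had 9.4 ± 0.18 CPM in NGP JSK591 and 7.52 ± 0.035 CPM in NGP DMSO, and rose by 0.32 ± 0.1 (edgeR adjusted p = 0.0078). In CHLA-20 CYP2R1 gave -0.05 ± 0.09 without passing, a difference of effects of 0.37 ± 0.14 (edgeR adjusted p = 0.0325). RXRA fell by 0.17 ± 0.05 in CHLA-20, to 40.9 ± 1.1 CPM (edgeR adjusted p = 0.00738), and gave -0.07 ± 0.05 in NGP without passing.

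METTL1 rose by 0.42 ± 0.05 in NGP (edgeR adjusted p = 1.8e-09) and by 0.40 ± 0.08 in CHLA-20 (edgeR adjusted p = 2.2e-05), with no overlap between treatments in either line. WDR4, the partner without which METTL1 does not methylate transfer RNA, also rose in both. WDR4 had 16.4 and 17.2 CPM in NGP JSK591 and 11.9 and 11.7 CPM in NGP DMSO, and 20.8 and 18.9 CPM in CHLA-20 JSK591 and 15.9 and 16.0 CPM in CHLA-20 DMSO. Its change was 0.51 ± 0.08 in NGP and 0.31 ± 0.07 in CHLA-20 (edgeR adjusted p = 4.99e-07 and 0.000465). Unlike METTL1, WDR4 lay higher in CHLA-20 than in NGP with either treatment.

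AVIL rose by 0.43 ± 0.07 in NGP (edgeR adjusted p = 1.07e-06) and by 0.50 ± 0.14 in CHLA-20 (edgeR adjusted p = 0.00347). The CHLA-20 value rested on 84 to 152 counts per library, and it was 0.29 without CHLA-20 DMSO replicate 2 and 0.42 without CHLA-20 JSK591 replicate 2, neither passing (adjusted p = 0.192 and 0.0663). Its relative GSN, gelsolin, which severs actin filaments, had 1.88 and 2.38 CPM in CHLA-20 JSK591 and 2.93 and 4.77 CPM in CHLA-20 DMSO and fell by 0.86 ± 0.18 (edgeR adjusted p = 0.000115). Without CHLA-20 DMSO replicate 2 the change of GSN was -0.44, which did not pass (adjusted p = 0.116). In NGP, GSN gave -0.29 ± 0.16, which did not pass either (adjusted p = 0.142), but it was -0.50 without NGP JSK591 replicate 1 (adjusted p = 0.0338). SCIN, scinderin of the same family, lay under 0.5 CPM everywhere, at 0.0866 and 0.0294 CPM in NGP JSK591 and 0.238 and 0.240 CPM in NGP DMSO. It passed as lower in NGP (edgeR adjusted p = 0.0384), a call lost with no filter (adjusted p = 0.0638) and on leaving out any 1 library (adjusted p = 0.0513 to 0.277).

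CTDSP2 fell in both lines. The change was -0.17 ± 0.03 in NGP (edgeR adjusted p = 8.45e-05) and -0.35 ± 0.04 in CHLA-20 (edgeR adjusted p = 3.18e-11), which amounted to -238 CPM in NGP and -39.5 CPM in CHLA-20. EEF1AKMT3 fell as well, by 0.20 ± 0.04 in NGP and by 0.31 ± 0.07 in CHLA-20 (edgeR adjusted p = 0.000145 and 0.000415). EEF1AKMT4, another elongation factor methyltransferase with 46.8% of its exonic bases shared, had 3.35 and 3.36 CPM in CHLA-20 JSK591 and 1.42 and 2.25 CPM in CHLA-20 DMSO. EEF1AKMT4 rose there by 0.87 ± 0.18 (edgeR adjusted p = 6.78e-05) and gave 0.00 ± 0.12 in NGP.

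CDK4 itself changed little. Its JSK591 libraries lay above its DMSO libraries in both lines, by 0.09 ± 0.04 in NGP (edgeR adjusted p = 0.0463) and 0.09 ± 0.04 in CHLA-20 (edgeR adjusted p = 0.0817), and only the NGP change passed. That call was lost on leaving out any 1 of the 8 libraries, NGP DMSO replicate 1 most (0.04, adjusted p = 0.507) and CHLA-20 DMSO replicate 1 least (0.09, adjusted p = 0.0548), and with DESeq2 (0.07, adjusted p = 0.102), its size factors in edgeR (0.07, adjusted p = 0.115), no filter (adjusted p = 0.0893), NGP libraries only (adjusted p = 0.0676) or the GC trend removed (0.03, adjusted p = 0.431). In CHLA-20, where the call was missed, CDK4 passed in fits without any 1 of NGP DMSO replicate 1, NGP DMSO replicate 2 and NGP JSK591 replicate 1 (0.12 each, adjusted p = 0.0165, 0.0166 and 0.0135) and with total count scaling (adjusted p = 0.0364), at least 10 counts in every library (adjusted p = 0.0471), CHLA-20 libraries only (adjusted p = 0.0185) or the GC trend removed (0.12, adjusted p = 0.00779). TSPAN31, which shares exonic bases with CDK4, gave 0.10 ± 0.04 in NGP (edgeR adjusted p = 0.0518) and -0.01 ± 0.07 in CHLA-20 (edgeR adjusted p = 0.904). The NGP value of TSPAN31 passed without CHLA-20 DMSO replicate 1 (adjusted p = 0.0444), with total count scaling (adjusted p = 0.0197), at least 10 counts (adjusted p = 0.0198) or NGP libraries only (adjusted p = 0.0351). TSFM gave -0.02 ± 0.04 in NGP and 0.12 ± 0.06 in CHLA-20 without passing (edgeR adjusted p = 0.792 and 0.136), with overlapping libraries in NGP. Its partner TUFM gave -0.05 ± 0.04 in both lines, without passing (edgeR adjusted p = 0.341 in NGP and 0.359 in CHLA-20), though with the GC trend removed it was -0.11 in NGP and passed (adjusted p = 0.0088).

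AGAP2 was the member whose response differed most between the lines. It rose by 0.31 ± 0.06 in NGP (edgeR adjusted p = 6.47e-05) and fell by 0.30 ± 0.07 in CHLA-20 (edgeR adjusted p = 0.000224), and the difference of the 2 effects was 0.61 ± 0.09 (edgeR adjusted p = 4.14e-07). Without CHLA-20 JSK591 replicate 2 the change in CHLA-20 was -0.18 and no longer passed (adjusted p = 0.0733). CTDSP2 was the other member with a difference of effects, 0.18 ± 0.05 (edgeR adjusted p = 0.00511), since its fall was smaller in NGP on the log2 scale. This call was lost without any 1 of 5 libraries, with differences of 0.12 to 0.15 and adjusted p = 0.0647 to 0.115: CHLA-20 DMSO replicate 2, CHLA-20 JSK591 replicate 2, NGP DMSO replicates 1 and 2 and NGP JSK591 replicate 1. With the trend with GC content removed it was 0.11 (adjusted p = 0.0773). The count was therefore 2 of 9 members, or 1 under those settings, where 27.7% of all genes passed this test. For CDK4 the difference of effects was 0.00 ± 0.05 and for METTL1 0.02 ± 0.09, and neither passed. MARCH9 rose by 0.59 ± 0.05 in NGP (edgeR adjusted p = 6.78e-17) and gave 0.04 ± 0.06 in CHLA-20 (0.15 with the GC trend removed, adjusted p = 0.0185), a difference of 0.55 ± 0.07 (edgeR adjusted p = 1.3e-08).

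Around CDK4 in the cell cycle, 19 of 20 genes of the cyclin D, kinase, inhibitor, RB and E2F list were tested, and the other, CCND2, named after its counts were seen, had 31 in all. In NGP 7 rose and 4 fell with JSK591, with a median change of 0.02, and in CHLA-20 7 rose and 6 fell, with a median of -0.06. Over all genes 36.2% passed in NGP and 39.4% in CHLA-20, with medians of 0.00 and -0.02. Without NGP DMSO replicate 2, 4 genes rose in NGP. CCND1, cyclin D1, which activates CDK4, had 488 and 487 CPM in NGP JSK591 and 301 and 306 CPM in NGP DMSO, and 1304 and 1289.7 CPM in CHLA-20 JSK591 and 913 and 926 CPM in CHLA-20 DMSO. It rose by 0.68 ± 0.04 in NGP and by 0.50 ± 0.03 in CHLA-20 (edgeR adjusted p = 7.1e-24 and 1.01e-18). CCND1 was thus higher in CHLA-20 than in NGP, the reverse of CDK4. CDK6, the kinase closest to CDK4, lay between 184 and 239 CPM in all libraries. It fell by 0.13 ± 0.04 in NGP and rose by 0.15 ± 0.04 in CHLA-20 (edgeR adjusted p = 0.00427 and 0.00131). The NGP call of CDK6 was lost without NGP DMSO replicate 1 or NGP JSK591 replicate 2 (adjusted p = 0.0548 and 0.115).

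The cyclins of the next step, CCNE1 and CCNE2, which activate CDK2, rose in both lines. CCNE1 rose by 0.68 ± 0.08 in NGP and by 0.58 ± 0.09 in CHLA-20 (edgeR adjusted p = 3.63e-10 and 6.24e-08). CCNE2, with 47.6% of its exonic bases shared, rose by 0.42 ± 0.14 in NGP and by 0.55 ± 0.13 in CHLA-20 (edgeR adjusted p = 0.0125 and 0.000439), but it did not pass in NGP without NGP DMSO replicate 2 or NGP JSK591 replicate 2 (adjusted p = 0.124 and 0.208), with DESeq2 (adjusted p = 0.135) or with no filter (adjusted p = 0.0707), nor in CHLA-20 without CHLA-20 JSK591 replicate 2 (adjusted p = 0.0671). CDKN1A, the p21 inhibitor of cyclin-dependent kinases, rose by 0.68 ± 0.04 in NGP and by 0.67 ± 0.04 in CHLA-20 (edgeR adjusted p = 2.39e-23 and 9.17e-22). CDKN1B, the p27 inhibitor, fell by 0.55 ± 0.05 in NGP and by 0.35 ± 0.04 in CHLA-20 (edgeR adjusted p = 8.66e-13 and 7.04e-11). It had 28 and 30.7 CPM in NGP JSK591 and 43.2 and 42.7 CPM in NGP DMSO, and 172 and 169.5 CPM in CHLA-20 JSK591 and 211 and 223 CPM in CHLA-20 DMSO.

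Of the INK4 inhibitors, which bind CDK4 and CDK6 directly, CDKN2A fell in both lines, CDKN2C and CDKN2D fell in CHLA-20, and CDKN2B passed in neither. CDKN2A, which encodes p16 and ARF, had 132 and 141 CPM in NGP JSK591 and 144 and 151 CPM in NGP DMSO, and 5.71 and 5.83 CPM in CHLA-20 JSK591 and 7.16 and 8.41 CPM in CHLA-20 DMSO. It fell by 0.11 ± 0.04 in NGP and by 0.43 ± 0.10 in CHLA-20 (edgeR adjusted p = 0.0418 and 0.000462). The NGP call was lost with DESeq2 (adjusted p = 0.104), total count scaling (adjusted p = 0.143), no filter (adjusted p = 0.168) or at least 10 counts (adjusted p = 0.0714), and without any 1 of CHLA-20 JSK591 replicates 1 and 2, NGP DMSO replicate 2 and NGP JSK591 replicate 1 (adjusted p = 0.053 to 0.273). The CHLA-20 call was lost without CHLA-20 DMSO replicate 2 (-0.29, adjusted p = 0.0769). CDKN2C had 21.1 and 20.9 CPM in NGP JSK591 and 22.1 and 23.4 CPM in NGP DMSO, and 1.41 and 1.99 CPM in CHLA-20 JSK591 and 3.73 and 3.17 CPM in CHLA-20 DMSO. It gave -0.11 ± 0.08 in NGP without passing and fell by 1.02 ± 0.17 in CHLA-20 (edgeR adjusted p = 0.246 and 1.16e-06). CDKN2D, named like CDKN2B after its values were seen, had 14.9 and 15.0 CPM in CHLA-20 JSK591 and 20.4 and 20.3 CPM in CHLA-20 DMSO. It fell there by 0.44 ± 0.08 (edgeR adjusted p = 5.96e-06) and gave -0.01 ± 0.11 in NGP, or 0.01 with total count scaling, without passing. CDKN1C, the p57 inhibitor, fell by 1.41 ± 0.28 in CHLA-20 (edgeR adjusted p = 2.43e-05), with 1.01 and 0.654 CPM in CHLA-20 JSK591 and 2.19 and 2.25 CPM in CHLA-20 DMSO, and had at most 0.118 CPM in any NGP library.

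RB1, whose protein CDK4 phosphorylates, had 50 and 50.6 CPM in NGP JSK591 and 64.6 and 61.5 CPM in NGP DMSO, and 58.2 and 58.4 CPM in CHLA-20 JSK591 and 55.2 and 55.5 CPM in CHLA-20 DMSO. It fell by 0.33 ± 0.05 in NGP (edgeR adjusted p = 1.28e-07) and gave 0.07 ± 0.05 in CHLA-20 (edgeR adjusted p = 0.231). The change differed between the lines for RB1 by -0.40 ± 0.07 (edgeR adjusted p = 4.8e-06), for CDK6 by -0.28 ± 0.05 (edgeR adjusted p = 4.27e-05) and for CDKN2C by 0.91 ± 0.19 (edgeR adjusted p = 0.000112).

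**Figure D4:**
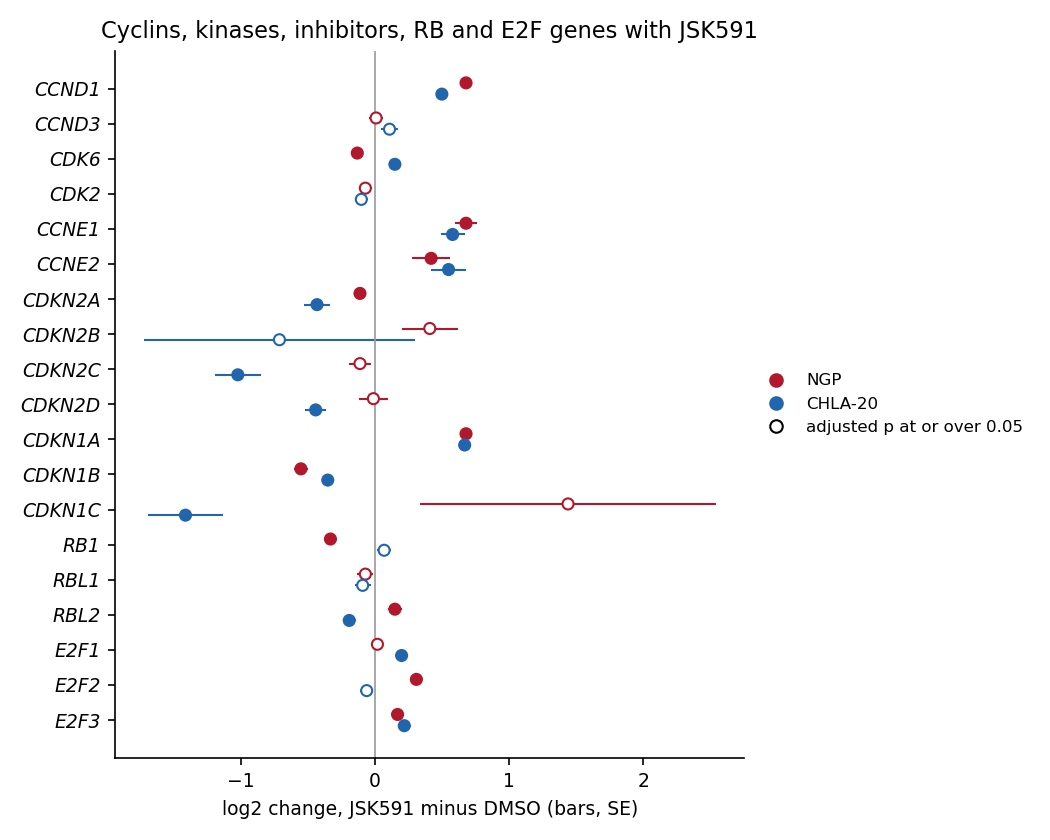
Log2 change between JSK591 and DMSO (x axis, bars are SE) of the 19 tested genes of the cyclin D, kinase, inhibitor, RB and E2F list in NGP and CHLA-20, open where the adjusted p is at or over 0.05. CCND1, CCNE1 and CDKN1A lie between 0.50 and 0.68 in both lines, while CDKN2C and CDKN1C reach -1.02 and -1.41 in CHLA-20.

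Of the 19 partners and relatives of the other members, 17 were tested. In NGP 3 rose and 2 fell with JSK591, with a median change of -0.05, and in CHLA-20 2 rose and 4 fell, with a median of -0.05. Over all genes 36.2% passed in NGP and 39.4% in CHLA-20. The number that fell was sensitive to single libraries. In NGP it was 0 without NGP DMSO replicate 2 or NGP JSK591 replicate 2 and 1 without either CHLA-20 DMSO library or either CHLA-20 JSK591 library. In CHLA-20 it was 2 without CHLA-20 DMSO replicate 2 or CHLA-20 JSK591 replicate 2.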

How the data were processed

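Messenger RNA of 8 libraries was sequenced on a DNBseq instrument, per the labels' protocols. The authors deposited unnormalised counts of reads in each gene. The submitters' processing notes name STAR, HTSeq and DESeq2 and the GRCh38 (hg38) build, with no versions, and the annotation and strand setting are not given in the sources used here. All 58721 identifiers matched GENCODE release 29, the source of symbols, types and coordinates. Reads outside genes made up 5.15% to 6.86% of counted reads, ambiguous ones 6.77% to 7.18% and those with several alignments 19.16% to 22.0%, and these stayed out of library sizes. At this depth 3 counts, the limit a count of 0 allows, equal at most 0.0904 CPM, which covers counting error only.

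The counts were tested with edgeR 4.0.16 in R 4.3.3: filterByExpr (19395 genes left), TMM scaling, and 1 quasi-likelihood model of 4 groups over all 8 libraries without a block (4 residual degrees of freedom, common dispersion 0.000761). P-values were Benjamini-Hochberg adjusted over all genes tested, with a threshold of 0.05. Each SE of a log2 change was worked back from the test, as the size of the change divided by the square root of its F statistic. CPM and RPKM were computed from the counts with TMM library sizes and, for RPKM, the union of exonic bases. On simulated data (19395 genes, 200 changed, JSK591 against DMSO in CHLA-20) 78.5% of changes were recovered, and 2.48% of all calls were false. The simulation gave every gene the common dispersion and every group the mean counts of CHLA-20. Its planted changes were larger than most of those of the members. Recovery of smaller changes, or with a spread that differs between genes, was therefore not measured. Replicates differed by more than sampling noise (chi-square 2.16 to 3.36 per degree of freedom), so none was counted as a duplicate. DESeq2 1.42.0, other scalings, filters, a replicate block, removal of the trend with GC content, and leaving out each library were tried as alternatives.

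The members and lists were chosen with earlier results of these data known. Beside the members, the genes named were coding genes between the outermost members, the 3 tested coding genes nearest on each side, AGAP2-AS1, MDM2 and MYCN, the 5 genes nearest to CDK4 in pattern, and from the lists the genes that passed with a change of at least 0.5 together with CCND1, CDK6, CDKN1A, CDKN2A, RB1, WDR4 and TUFM. Apart from the cell type markers, genes outside this rule are marked as chosen after their values were seen.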

Additional observations from a re-analysis of the deposited data

Results flagged for a closer look

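The response to JSK591 differed between NGP and CHLA-20 in 27.7% of all genes tested, by the test of the difference itself in edgeR (NGP effect minus CHLA-20 effect, log2 ± SE). Of the genes named that passed it, 17 are taken up here. Some were chosen after their values were seen, so nothing is read from their number. Among the members they were AGAP2 at 0.61 ± 0.09 (edgeR adjusted p = 4.14e-07) and CTDSP2 at 0.18 ± 0.05 (edgeR adjusted p = 0.00511). Near them on chromosome 12, MARCH9 differed by 0.55 ± 0.07, SLC26A10 by 0.77 ± 0.20 and B4GALNT1 by 0.25 ± 0.07 (edgeR adjusted p = 1.3e-08, 0.00218 and 0.00465). All 3 rose in NGP, by 0.59, 0.68 and 0.20, while none of them passed in CHLA-20. SLC26A10 had 5.98 and 4.67 CPM in NGP JSK591 and 3.61 and 3.03 CPM in NGP DMSO, and its difference was 0.53 (adjusted p = 0.0687) without NGP JSK591 replicate 1. With DESeq2 its adjusted p was 0.0656. The difference of B4GALNT1 was 0.19 (adjusted p = 0.0704) without NGP DMSO replicate 2, 0.22 (adjusted p = 0.055) with DESeq2 and 0.09 (adjusted p = 0.306) with the GC trend removed. INHBE, at 303.7 kb from CDK4 and chosen after its values were seen, had the largest of the 17 differences, 1.63 ± 0.29 (edgeR adjusted p = 9.59e-06), and 1.38 to 1.92 over all alternatives run. It had 23.4 and 28.2 CPM in NGP JSK591 and 37.6 and 37.2 CPM in NGP DMSO, and 0.346 and 0.506 CPM in CHLA-20 JSK591 and 2.01 and 1.84 CPM in CHLA-20 DMSO.

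In the cell cycle list, the difference passed as positive in 6 of 19 tested genes and as negative in 4, where 27.7% of all genes passed. Besides the flagged genes, RBL2 (0.34 ± 0.07), E2F2 (0.37 ± 0.07) and E2F1 (-0.19 ± 0.06) passed there (edgeR adjusted p = 5.19e-05, 1.87e-05 and 0.0123). They are named after their values were seen. For the flagged genes, the differences were -0.28 ± 0.05 for CDK6, 0.19 ± 0.05 for CCND1, -0.20 ± 0.07 for CDKN1B, 0.91 ± 0.19 for CDKN2C, -0.40 ± 0.07 for RB1, 0.32 ± 0.11 for CDKN2A and 0.43 ± 0.14 for CDKN2D. That of CDKN2D (edgeR adjusted p = 0.0145) was not called without CHLA-20 DMSO replicate 2, NGP DMSO replicate 2 or NGP JSK591 replicate 2 (0.28 to 0.39, adjusted p = 0.05 to 0.202), with DESeq2 (adjusted p = 0.133), no filter (adjusted p = 0.0752) or the GC trend removed (0.23, adjusted p = 0.223). Without CHLA-20 DMSO replicate 2 that of CDKN2A was 0.16 (adjusted p = 0.444), and it did not pass without CHLA-20 JSK591 replicate 1 or 2, NGP DMSO replicate 1 or NGP JSK591 replicate 2 either (adjusted p = 0.0814 to 0.148), with DESeq2 (adjusted p = 0.0709), with no filter (adjusted p = 0.128) or with the GC trend removed (0.12, adjusted p = 0.44). The call of CCND1 was lost without CHLA-20 DMSO replicate 2, NGP DMSO replicate 1 or NGP JSK591 replicate 1 (adjusted p = 0.0558 to 0.101). That of CDKN1B was lost without CHLA-20 DMSO replicate 1, CHLA-20 JSK591 replicate 1 or NGP JSK591 replicate 1 (adjusted p = 0.0557 to 0.0909), and with no filter (adjusted p = 0.0692). EEF1AKMT4 differed by -0.87 ± 0.22 (edgeR adjusted p = 0.00132), or by -0.58 (adjusted p = 0.0595) without CHLA-20 DMSO replicate 1.

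MDM2 rose by 0.32 ± 0.04 in NGP and by 0.68 ± 0.05 in CHLA-20, a difference of -0.36 ± 0.06 (edgeR adjusted p = 2.62e-06). MYCN fell by 0.21 ± 0.04 in NGP and gave 0.26 ± 0.17 in CHLA-20, a difference of -0.47 ± 0.18 (edgeR adjusted p = 0.0425) that was 9.1e-05 without CHLA-20 JSK591 replicate 2 and was not called without CHLA-20 DMSO replicate 2 or NGP DMSO replicate 2 (adjusted p = 0.176 and 0.0526), nor with DESeq2 (adjusted p = 0.427), no filter (0.231), total count scaling (0.0528) or at least 10 counts (0.0556). VPS37B differed by -0.26 ± 0.07 (edgeR adjusted p = 0.00225), and by -0.18 (adjusted p = 0.0705) without CHLA-20 DMSO replicate 1.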

How the results depend on the processing

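With 2 libraries a group, small changes such as that of CDK4 depended on single libraries, and low members on few counts. Of the alternative values of the counts and medians reported, 412 stayed close to the reported one and 28 did not. The limit for a close count was wide. In CHLA-20 as few as 2210 genes rose, against 3285, and as few as 2988 fell, against 4354, and these were taken as close. DESeq2 called 1812 genes higher in NGP, against 3266, and 1633 with a larger effect in NGP, against 2950. The members with a difference of effects numbered 1 with the trend with GC content removed, with or without a replicate block, and 1 to 2 on leaving out a library. Cyclin D list genes that rose in NGP numbered 4 to 7 on leaving out a library, and partners that fell numbered 0 to 2 in NGP and 2 to 4 in CHLA-20. Partners that fell in NGP were 0 with DESeq2 or without a filter, 1 with NGP libraries only, at least 10 counts or total count scaling, and 5 with the GC trend removed, with or without the block. The outer median of the window was 0.20, 0.94 or 0.57 with 2 Mb, all gene types or the JSK591 libraries. The cause of these shifts was not tested.

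Directions that turned were all of changes that had not passed, apart from MYCN (9.1e-05 without CHLA-20 JSK591 replicate 2). With total count scaling the change was 0.01 for TSFM in NGP, 0.00069 for TSPAN31 in CHLA-20, 0.01 for CDKN2D in NGP, 0.02 for EEF1AKMT4 in NGP and 0.01 for the CDK4 difference of effects. With at least 10 counts the last 3 were 0.0026, 0.01 and 0.0046. TSPAN31 gave 0.01 with CHLA-20 libraries only. TUFM in CHLA-20 gave 0.04 with the GC trend removed, with or without the block, and the METTL1 difference of effects -0.11 there, -0.0029 with DESeq2 size factors and -0.002 with DESeq2. On leaving out a library, the change of TSPAN31 in CHLA-20 ran from -0.12 to 0.13, of CDKN2D in NGP from -0.14 to 0.08, of EEF1AKMT4 in NGP from -0.15 to 0.11, of MARCH9 in CHLA-20 from -0.0035 to 0.09 and of TUFM in CHLA-20 from -0.07 to 0.01. Differences of effects ran from -0.03 to 0.20 for TSPAN31, -0.35 to 0.13 for AVIL, -0.08 to 0.02 for CDK4, -0.11 to 0.06 for METTL1 and -0.83 to 9.1e-05 for MYCN.

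Deviations of libraries that share a replicate number were unrelated (correlations -0.0269 to 0.0122), so no pairing by number showed in these values. Whether such libraries were grown or prepared together is not stated. With the number as a replicate block, 6 members rose in NGP, TSPAN31 being added (adjusted p = 0.0428), and 3256 genes rose and 3757 fell there.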
